A study of Mus musculus with 6 samples.

Results

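Prostaglandin synthesis and signalling were followed through 9 named genes, Ptgs1, Ptgs2, Ptges, Ptges2, Ptges3, Hpgd, Tbxas1, Ptger2 and Ptger4, by taking every probe set whose gene symbol was one of these names. Of the 9 genes, 7 had at least 1 probe set of their own, 12 probe sets in all out of 45037 non-control probe sets on the array. Ptgs1 was the symbol of no probe set in the annotation table used and was not analysed here. Ptges3 was named only on 2 probe sets that also carry the pseudogene Ptges3-ps, so their signal cannot be given to either. Ptges2 was too dim to be tested, which left 6 members among 10960 tested genes.

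The arrays measured total RNA from peripheral blood neutrophils of 3 phd3 null mice and 3 wild-type mice, both on a C57 background and both kept for 4 h at 3% oxygen. Neutrophils came from individual mice by negative magnetic selection, which removes other cells with antibodies and leaves neutrophils unlabelled. The phd3 gene, now named Egln3, encodes a prolyl hydroxylase that uses oxygen to mark hypoxia-inducible factor (HIF) for degradation. The labels do not say which part of the gene was removed, nor the age or sex of the mice, and cells kept at normal oxygen were not analysed here, so each difference is between genotypes in hypoxia.

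Prostaglandins are made from arachidonic acid, which phospholipase A2 frees from membranes. The cyclooxygenases, constitutive COX-1 (Ptgs1) and inducible COX-2 (Ptgs2), turn it into prostaglandin H2, and terminal synthases turn that into prostaglandin E2 (Ptges, Ptges2 and Ptges3), thromboxane A2 (Tbxas1) or other prostanoids. Prostaglandin E2 raises cyclic AMP through its receptors EP2 (Ptger2) and EP4 (Ptger4), a signal known to restrain neutrophil activation, and it is inactivated by the dehydrogenase encoded by Hpgd.

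The start regions of Ptgs2, Ptger2 and Ptges are shown because these were the members with the smallest unadjusted p when the mice were compared as pairs. Each stretch gives 250 bases upstream of a transcript start annotated by RefSeq on mouse assembly GRCm38.p6, 5′ to 3′ on the strand of the gene, with the HIF core GCGTG in capitals on either strand and, for Ptgs2, the C/EBP site TTGCGCAA in capitals too. Ptgs2 lies on the forward strand of chromosome 1 (chr1:150099781-150100030 for the stretch), Ptger2 on the forward strand of chromosome 14 (chr14:44987861-44988110) and Ptges on the reverse strand of chromosome 2 (chr2:30903298-30903547).
Ptgs2: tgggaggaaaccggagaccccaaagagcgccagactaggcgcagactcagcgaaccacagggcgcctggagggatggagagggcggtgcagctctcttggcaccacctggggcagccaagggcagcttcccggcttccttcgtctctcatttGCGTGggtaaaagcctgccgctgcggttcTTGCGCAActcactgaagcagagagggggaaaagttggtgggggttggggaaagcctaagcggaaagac
Ptger2: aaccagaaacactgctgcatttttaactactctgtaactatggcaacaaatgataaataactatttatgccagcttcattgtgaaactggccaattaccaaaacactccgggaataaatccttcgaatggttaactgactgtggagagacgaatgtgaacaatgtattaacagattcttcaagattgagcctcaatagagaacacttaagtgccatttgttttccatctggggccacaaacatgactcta
Ptges: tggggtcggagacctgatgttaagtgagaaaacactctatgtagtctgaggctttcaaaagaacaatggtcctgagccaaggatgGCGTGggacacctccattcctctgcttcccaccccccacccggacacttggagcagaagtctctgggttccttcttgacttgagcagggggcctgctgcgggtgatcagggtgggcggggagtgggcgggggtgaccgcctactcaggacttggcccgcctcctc

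A second stretch of Ptgs2, just after the annotated start (chr1:150100034-150100063), holds the core of a cyclic AMP response element, CGTCA (the reverse strand of TGACG), that runs into an E-box, CACGTG. Capitals mark both, and the E-box also contains the HIF core ACGTG on each strand.
Ptgs2 after the start: gtcaccactaCGTCACGTGgagtccgcttt

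All 9 members had a window of 250 bases before to 50 bases after a start in the RefSeq table, and 6 motifs were searched on both strands of these windows and of all 32851 windows of that length. GCGTG occurred in 5 of 9 members (Ptgs2, Ptges, Ptges2, Ptges3 and Hpgd) and in 32.4% of all windows. ACGTG and the E-box CACGTG each occurred in 2 of 9 members, the same pair, Ptgs2 and Ptges2, and in 19.6% and 7.15% of all windows. The core TGACG was found in Ptgs2 and Ptges3 and in 20.8% of all windows. The site TTGCGCAA, known to bind C/EBP factors in inducible genes of myeloid cells, was found only in Ptgs2 among the members and in 0.183% of all windows, and the AP-1 site TGANTCA only in Tbxas1 and in 7.81%. The Ptger2, Ptger4 and Ptgs1 windows held none of the 6. These matches describe letters and were not tested as binding sites.

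The targeted gene was low on every phd3 null array, with Egln3 at 29.6 to 87.2 there, against 327 to 2088 on wild-type arrays. Replicate 3 differed from the other replicates in both genotypes: over all probe sets, the median correlation with the remaining arrays was 0.740 for its phd3 null array and 0.771 for its wild-type array, and 0.794 to 0.812 elsewhere. Neutrophil markers were above the filter on dim genes in 8 of 8 cases, with sums for samples 1, 2 and 3 of 42421.9, 51847.1 and 25532.9 with the phd3 null genotype, against 58314.5, 47291 and 43487.5 with the wild-type one. Replicate 3 was the lowest in both, and the chemokine receptor gene Cxcr2 read 25.6 in phd3 null sample 3, against 227 in wild-type sample 3. S100a8 and S100a9 carried most of the neutrophil sum. Among wild-type arrays, sample 3 was not the lowest for S100a9 (20746, against 19936.2 in sample 2), Lcn2 (1341, against 894.5) or Mmp9 (340.8, against 254.3). Bnip3, a gene induced by hypoxia, was at 202.3 and 195.7 in phd3 null and wild-type sample 3, and at 2575.4 to 4817.4 elsewhere, while Hspa1a was at 1157.9 and 1175.1, and at 67.2 to 171.3 elsewhere. Monocyte and macrophage markers were also present, 7 of 7 above the filter, and their summed signal for samples 1, 2 and 3 was 16439.5, 15447.1 and 6480.8 with the phd3 null genotype, against 15929.7, 15987.5 and 7116.2 with the wild-type one. B cell markers summed to 143.5, 392.8 and 3315.8 in phd3 null and 305.5, 640.6 and 2674.5 in wild type, so in replicate 3 of both genotypes the B cell sum was high and the monocyte sum low. Csf1r carried most of the monocyte sum, and not every monocyte marker was low there: Ly86 read 800.2 in phd3 null sample 3 and 589.4 in wild-type sample 3, the highest of its genotype. No marker was listed at 0. In a preparation of bulk cells, fewer cells of a type and less RNA per cell cannot be told apart.

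Of the 6 tested members, 0 passed an adjusted p of 0.05 in limma's moderated test, and neither did any other gene (0 of 10960, or 0%). At an unadjusted p under 0.05 there was 1 member of 6, Ptges, against 191 of all genes tested (1.74%). The Ptges probe set passed the filter on dim genes only through its phd3 null signals, so this count is not independent of them. On average 5 of the 6 members were lower in phd3 null neutrophils (Ptgs2, Hpgd, Tbxas1, Ptger2 and Ptger4), against 50.6% of all genes, and 1, Ptges, was higher, against 49.4%. The median log2 difference was -0.47 over the 6 members and -0.01 over all genes. Differences are phd3 null minus wild type, taken after adding 16 to each signal and then log2, and the added 16 shrinks the differences of dim genes.

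Same-numbered samples of both genotypes share a code in the labels, so they were also compared as pairs, with the replicate number as a block. In that paired fit 0 of 6 members passed after adjustment, against 2 of 10960 genes (0.0182%). Unadjusted p was under 0.05 for 3 members, Ptger2, Ptgs2 and Ptges, against 616 of all genes (5.62%). With no trend in the prior variance of the paired fit, it was so for 2 members, Ptger2 and Ptges, against 537 of 10960 genes. The members moved in 1 direction in all 3 pairs in 3 of 6 cases, against 25.6% of all genes. Ptger2 and Tbxas1 were the 2 lower ones, against 13% of all genes, and Ptges the 1 higher one, against 12.6%. Groups did not overlap for 1 of 6 members, Ptges, against 6.92% of all genes. The probe set that stood for Ptges was picked by its mean over all 6 arrays, which its high phd3 null signals raised. Without those signals it would also have been below the filter on dim genes. Its counts here are therefore not independent of these steps.

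**Figure D1:**
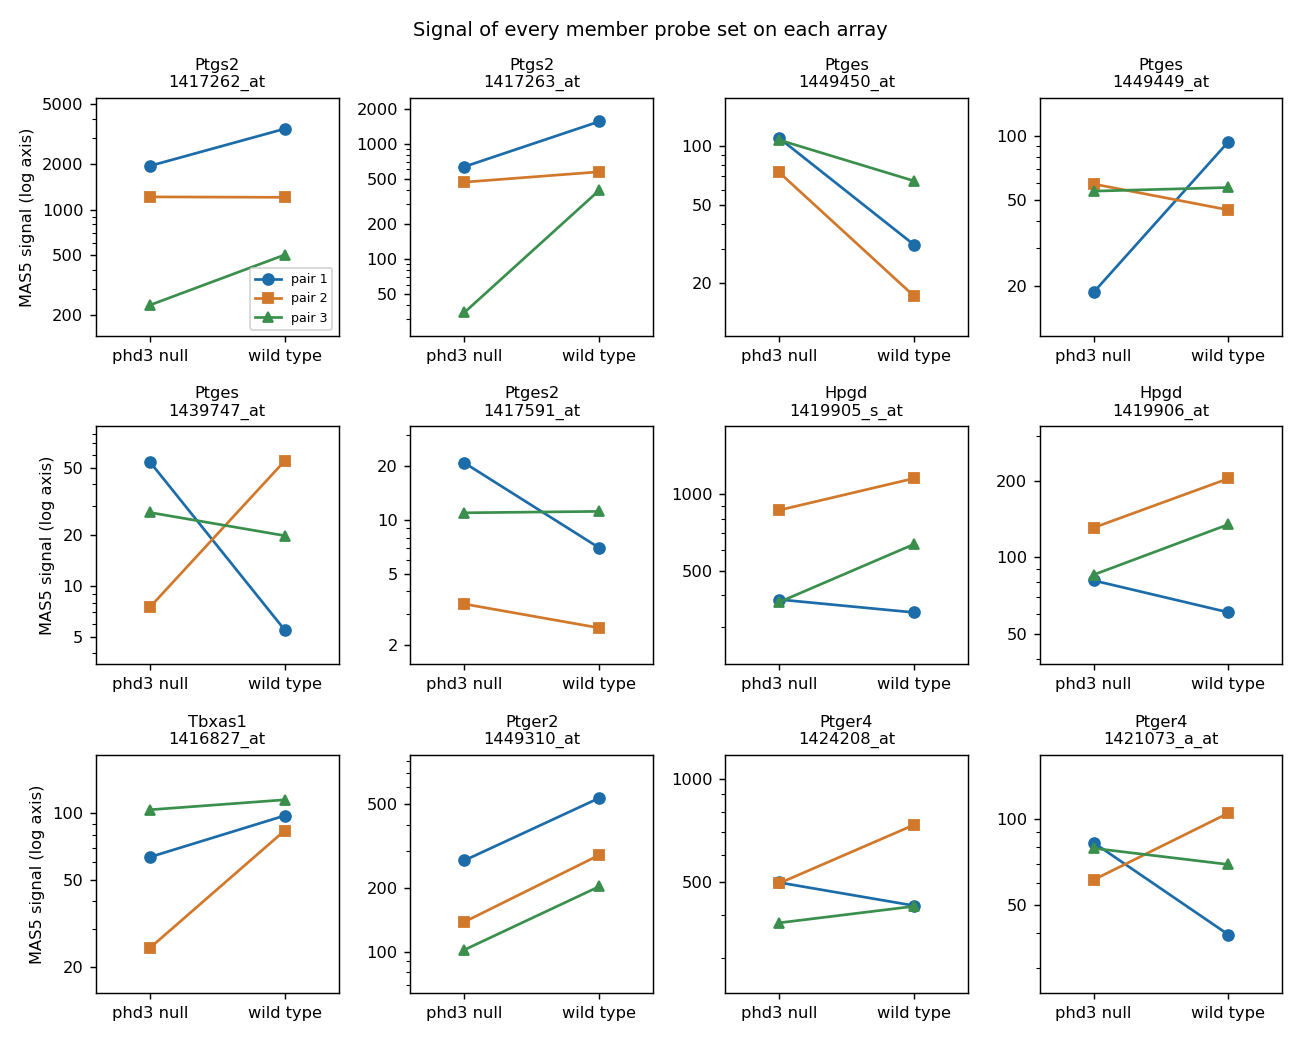
MAS5 signal (log axis, a range of its own in each panel) of the 12 member probe sets on the 6 arrays, phd3 null left and wild type right, with a line joining same-numbered samples. The 3 Ptger2 lines run in parallel, the Ptgs2 lines start lowest in pair 3, and the 3 probe sets of Ptges run differently from each other.

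Ptgs2, which encodes inducible COX-2, had 2 probe sets. The brighter one (1417262_at) read 1950.4, 1216.8 and 234.2 in phd3 null samples 1 to 3, against 3431.2, 1209 and 503.5 in wild-type samples 1 to 3. The genotypes overlapped, and in both the signal was highest in sample 1 and lowest in sample 3. The phd3 null mean was 1134 ± 861 and the wild-type mean 1715 ± 1528 (SD, n = 3 each), a log2 difference of -0.62 (SE 0.83, limma adjusted p = 0.9996). Within pairs the differences were -0.81, 0.01 and -1.05, and the paired fit gave an SE of 0.23 and an unadjusted p of 0.0178 (limma adjusted p = 0.828). With no trend in limma's prior variance, the paired SE was 0.33 and the unadjusted p was 0.112.

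The other Ptgs2 probe set (1417263_at) separated the genotypes more. It read 633.8, 465.6 and 34.5 in phd3 null, against 1563.2, 572 and 396.4 in wild type. Each phd3 null signal was below that of its own pair, although the groups overlapped, and the lowest of all was phd3 null sample 3. The log2 difference was -1.53, with -1.28, -0.29 and -3.03 in pairs 1 to 3. Tested as 1 of 45037 probe sets it had an SE of 0.72 and an adjusted p of 0.9997 in limma, and 0.32 and 0.138 in the paired fit. Its unadjusted p of 8.26e-05 in limma's paired fit was the smallest of any member probe set. Because limma draws each SE toward those of probe sets of like brightness, this SE and p do not measure the spread of these 3 pairs. In that paired fit 6 of 45037 probe sets passed (0.0133%), none of them of a member. When phd3 null sample 3 was left out, its difference was -0.38, and that of the brighter probe set was 0.26, so the direction of the brighter one rested on that array. It also rested on wild-type sample 1, without which it was 0.09. Replicate 3, where Ptgs2 was dimmest in both genotypes, was also where the sums of neutrophil and of monocyte markers and the hypoxia-induced gene Bnip3 were lowest and B cell markers and the heat shock gene Hspa1a highest. The part of these in the Ptgs2 values was not tested.

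Ptgs2 varied more over the 6 arrays than 98.9% of tested genes, with an SD of 1.35 and a range of 3.78 on the log2 scale. The 3 genes whose values ran closest to it, by the root mean square distance of log2(signal + 16) values centred on their 6-array mean, were Acod1 (0.18), which makes itaconate in activated myeloid cells, Ehd1 (0.20), a regulator of endocytic recycling, and Marcksl1 (0.23), a MARCKS family gene. Acod1 read 5809.8, 4115.7 and 671 in phd3 null and 10864.3, 4247.8 and 1243.4 in wild type, the same order of arrays within each genotype as Ptgs2. These genes were picked for likeness, so their likeness is a description.

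The terminal prostaglandin E2 synthases gave little that could be read. Ptges encodes the inducible microsomal synthase that is often coupled to COX-2, and its 3 probe sets disagreed. The brightest (1449450_at) read 109.9, 73.5 and 107.4 in phd3 null, against 31.4, 17.2 and 66.4 in wild type, with every phd3 null signal above every wild-type one. The means were 96.9 ± 20.3 and 38.3 ± 25.3 (SD, n = 3 each), a log2 difference of 1.14 (SE 0.49, limma adjusted p = 0.9996, unadjusted p = 0.0433), and the pairs gave 1.41, 1.43 and 0.58.

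The next Ptges probe set (1449449_at) read 18.6, 59.6 and 55.2 in phd3 null, against 94, 45.1 and 57.4 in wild type, a log2 difference of -0.47 with overlapping groups. In wild type it was brighter than the first, with a mean of 65.5 against 38.3. The first thus stood for the gene only through its phd3 null signals. The dimmest (1439747_at) was below the filter and read 54.5, 7.5 and 27.3 in phd3 null, against 5.5, 55.2 and 19.9 in wild type, a log2 difference of 0.13. Pairs 1 and 2 pointed in opposite directions on this probe set. The difference of the first probe set was thus not matched by the other 2, in direction by the next or in size by the dimmest. With the first probe set kept, leaving out 1 array at a time moved its difference between 0.84 and 1.49.

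Ptges2, encoding a second membrane-associated synthase, had 1 probe set (1417591_at) below the filter, at 20.9, 3.4 and 11 in phd3 null, against 7, 2.5 and 11.2 in wild type. Its values were too low to order the genotypes. The 2 probe sets shared by Ptges3, which encodes p23, a co-chaperone of HSP90 with reported synthase activity, and Ptges3-ps were bright. One (1417998_at) read 1574, 1387.8 and 1229.8 in phd3 null, against 2092, 1473.1 and 1155.2 in wild type, and the other (1460221_at) 1037.4, 922.3 and 741.1, against 1151.4, 1227.9 and 869.2. Groups overlapped on both. The first had a log2 difference of -0.13 (SE 0.36), with -0.41, -0.09 and 0.09 in the pairs. The second had -0.26 (SE 0.32, and 0.20 in the paired fit, where limma's adjusted p was 0.945), with -0.15, -0.41 and -0.23 in the pairs.

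Tbxas1, encoding thromboxane A synthase, which makes the platelet activator thromboxane A2, read 63.4, 24.5 and 104 in phd3 null, against 97.8, 83.7 and 115.4 in wild type on its single probe set (1416827_at). In all 3 pairs the phd3 null signal was the lower one, with log2 differences of -0.52, -1.30 and -0.13, while the groups overlapped. The fit gave -0.65 (SE 0.47, limma adjusted p = 0.9996). Leaving out phd3 null sample 2, the lowest array, gave -0.23. Platelets express this gene strongly, and of 8 platelet markers 5 were above the filter, with a summed signal of 584.5, 547 and 799 in phd3 null and 574.8, 594.5 and 505.2 in wild type. Single platelet marker signals went down to 2.4, so these sums say little about platelet content. The part of platelets in the Tbxas1 values was not tested.

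Hpgd encodes 15-hydroxyprostaglandin dehydrogenase, the first enzyme of prostaglandin E2 inactivation. Its brighter probe set (1419905_s_at) read 384.8, 862.7 and 375.7 in phd3 null, against 342.4, 1149.9 and 634.1 in wild type. Sample 2 was the highest in both genotypes and the groups overlapped. The means were 541 ± 279 and 709 ± 409 (SD, n = 3 each), a log2 difference of -0.33 (SE 0.49, limma adjusted p = 0.9996), with 0.16, -0.41 and -0.73 in pairs 1 to 3. The other probe set (1419906_at) read 81.2, 130.7 and 85.5 in phd3 null, against 60.9, 203.8 and 134.7 in wild type. It ran the same way in each pair, with a log2 difference of -0.27. Without wild-type sample 2 the difference of the brighter probe set was 0.10, so its direction rested on that array.

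Ptger2, the EP2 receptor gene, showed the most even difference of the members. Its probe set (1449310_at) read 270.8, 138.6 and 102.2 in phd3 null samples 1 to 3, against 534.9, 287.2 and 203.9 in wild-type samples 1 to 3. Each phd3 null signal was about as far below its pair as the others, although phd3 null sample 1 was above wild-type sample 3 and so the groups overlapped. The means were 171 ± 88.7 and 342 ± 172 (SD, n = 3 each), and the pairs gave log2 differences of -0.94, -0.97 and -0.90. The fit gave -0.94 (SE 0.45, limma adjusted p = 0.9996). In the paired fit the SE was 0.26 and the unadjusted p was 0.00266, 47th of 10960 genes in order of p, without passing the adjustment (limma adjusted p = 0.621). With pair 3 left out, the difference was -0.96 without the block, and in the paired fit it still did not pass (adjusted p = 0.238).

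The 3 genes that ran closest to Ptger2 over the 6 arrays were Cd14 (distance 0.13), the lipopolysaccharide co-receptor, Btbd19 (0.16) and the autophagy gene Atg7 (0.19). Cd14 read 6766.3, 3501.4 and 2222.3 in phd3 null and 11272.2, 5502.6 and 4419.5 in wild type. Both Ptger2 and Cd14 were highest in sample 1 and lowest in sample 3 of each genotype. The pattern of the brightest Ptges probe set was closest to that of Rad51ap1 (0.15), a homologous recombination gene, and of 2 Riken cDNA genes (0.18 each). Rad51ap1 was dim too, at 83.8, 70 and 81.1 in phd3 null and 30.6, 11.1 and 65.4 in wild type. These genes were picked for likeness to a dim pattern that the other Ptges probe sets did not share. Natural killer (NK) cell markers were lower in phd3 null in all 3 pairs for 4 of 5 genes, against 13% of all genes. The NK marker sums were 369.9, 2473.2 and 1930.1 in phd3 null and 1223.2, 5419.8 and 2774.3 in wild type. Their part in the Ptger2 difference was not tested.

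**Figure D2:**
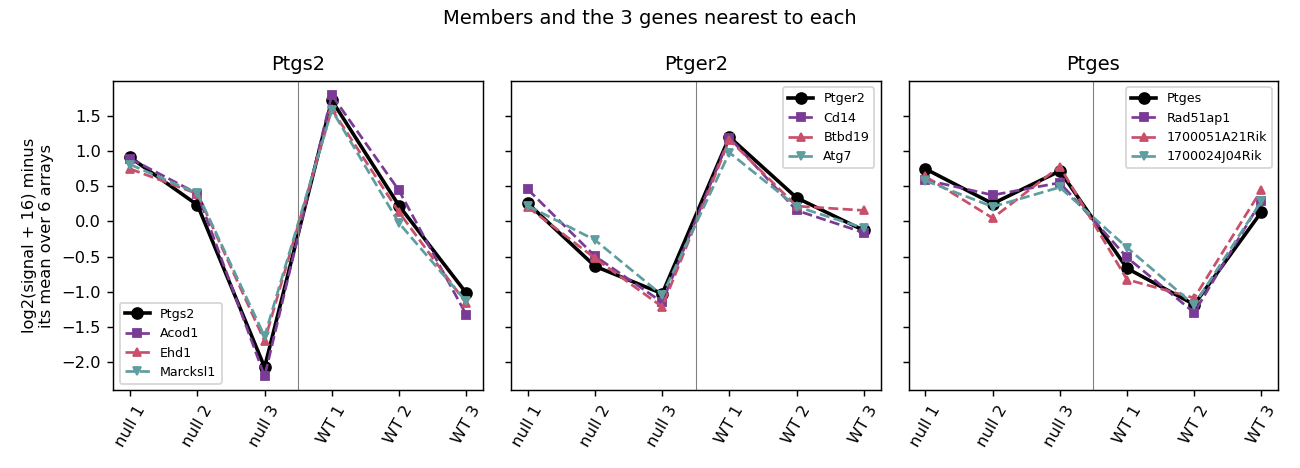
Values of Ptgs2, Ptger2 and Ptges (black) and of the 3 genes nearest to each (dashed) on the 6 arrays, as log2(signal + 16) minus the mean over the 6 arrays, phd3 null left of the grey line and wild type (WT) right of it. Ptgs2 and its neighbours fall to their lowest value in phd3 null sample 3, and Ptger2 follows Cd14 to within a distance of 0.13.

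Ptger4, the EP4 receptor gene, had signals of 497.9, 495.1 and 379.8 in phd3 null, against 426.4, 732.6 and 424.4 in wild type, on its brighter probe set (1424208_at). The groups overlapped, and wild-type sample 2 was the highest array. The means were 458 ± 67.4 and 528 ± 177 (SD, n = 3 each), a log2 difference of -0.16 (SE 0.33, limma adjusted p = 0.9996), with 0.22, -0.55 and -0.15 in the pairs. The other probe set (1421073_a_at) read 82.9, 61.4 and 79.2 in phd3 null, against 39.4, 105.3 and 69.5 in wild type, a log2 difference of 0.11. Ptger4 varied less over the arrays than most tested genes, with an SD of 0.32 on the log2 scale, at the 19.1 percentile. The difference between the Ptger2 and Ptger4 effects was not tested.

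**Figure D3:**
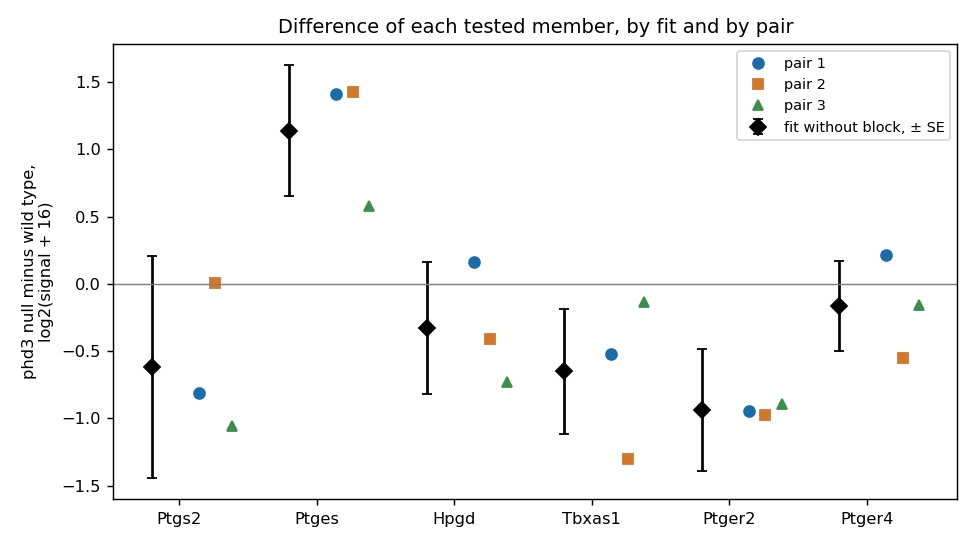
Difference of each tested member, phd3 null minus wild type on the log2(signal + 16) scale, as the fit without a block (black, ± SE) and in each same-numbered pair. Ptger2 lies between -0.97 and -0.90 in its pairs and Ptgs2 between -1.05 and 0.01.

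Genes that supply arachidonic acid or return it to phospholipids were lower in 8 of 9 tested cases, against 50.6% of all genes. Their median log2 difference was -0.30, and 6 of the 9 were lower in all 3 pairs, against 13% of all genes. None passed (0 of 9 in either direction, with or without the block). The members, this list and those below were chosen with earlier results of these data known, so their counts are a description. Pla2g4a, encoding cytosolic phospholipase A2 alpha, the enzyme that frees arachidonic acid in activated cells, read 163.5, 189 and 15.2 in phd3 null, against 305.7, 319.2 and 131.4 in wild type. Each phd3 null signal was below that of its pair, and sample 3 was the lowest in both genotypes. Its log2 difference was -1.26 (SE 0.68, and 0.35 in the paired fit, where limma's adjusted p was 0.586). Lpcat3, which loads arachidonate into phospholipids, read 113.2, 238.5 and 42.4 in phd3 null, against 245.4, 417.2 and 115 in wild type, a log2 difference of -0.98 (SE 0.59). Mgll, whose lipase yields arachidonic acid from an endocannabinoid, differed by -0.50 (SE 0.49), and Mboat7, which esterifies arachidonate to phosphatidylinositol, by -0.33 (SE 0.35).

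Other prostanoid enzymes and carriers were lower in 6 of 6 tested cases, against 50.6% of all genes, with a median of -0.28. Only 1 of the 6 was lower in all 3 pairs, against 13% of all genes. Ptgr1, a reductase of prostaglandins and leukotriene B4, was called in the paired fit (log2 difference -1.69, SE 0.24, adjusted p = 0.0128) and not without the block. The paired call did not hold in a fit whose prior variance had no trend, in which 0 of 10960 genes passed. Its signal was 1280.3, 609.3 and 17.8 in phd3 null, against 2925.9, 2446.4 and 110.6 in wild type. The other 5 lay between -0.52 and -0.07, on dim signals of 10.1 to 135.6, and 0 passed in either fit. Other prostanoid receptors were higher in 2 and lower in 2 of 4 tested cases, and 0 passed. Ptgir, the prostacyclin receptor, which also raises cyclic AMP, was lower in all 3 pairs, at 318.6, 231.5 and 74 in phd3 null, against 362.6, 439.1 and 133.2 in wild type, a log2 difference of -0.60 (SE 0.57). Ptgdr, a prostaglandin D2 receptor gene, differed by 0.37 (SE 0.38), the thromboxane receptor gene Tbxa2r by 0.29 (SE 0.50) and the prostaglandin F receptor gene Ptgfr by -0.34 (SE 0.62).

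**Figure D4:**
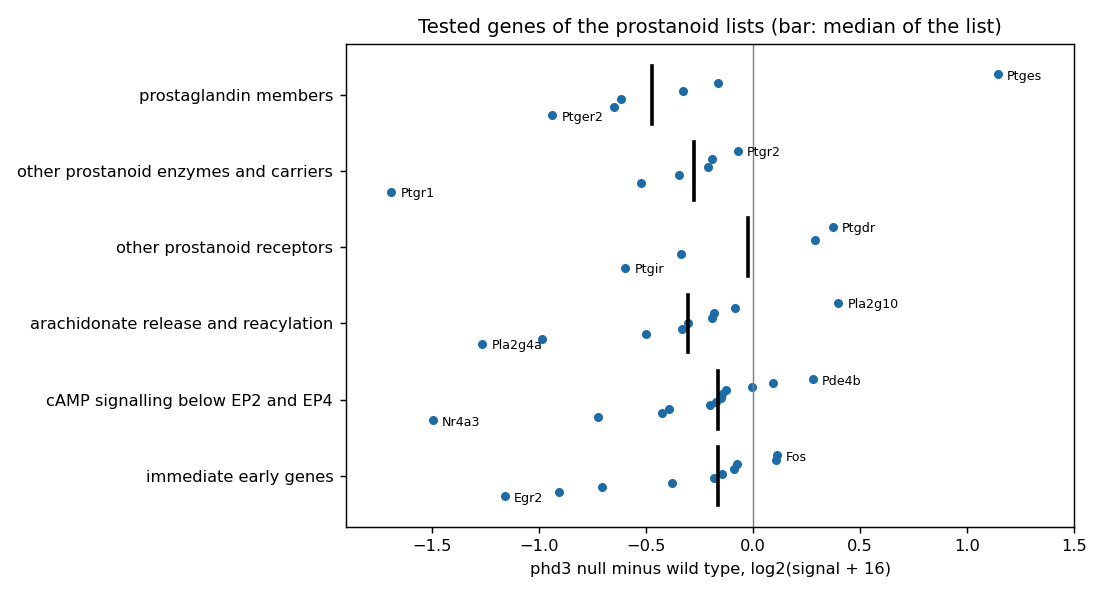
Difference of each tested gene, phd3 null minus wild type on the log2(signal + 16) scale, for the members and 5 related gene lists, with the lowest and the highest gene of each named. Bars mark list medians, from -0.47 for the members to -0.02 for the other prostanoid receptors.

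Genes of cyclic AMP signalling downstream of EP2 and EP4 were lower in 10 of 12 tested cases, against 50.6% of all genes. Their median was -0.16, and 0 passed in either fit. In all 3 pairs 2 of 12 were lower, against 13% of all genes. The cyclic AMP phosphodiesterase gene Pde4d read 56.5, 70.7 and 57.4 in phd3 null, against 92, 91.1 and 164.1 in wild type, without overlap, a log2 difference of -0.72 (SE 0.37). Its relative Pde4b differed by 0.28 (SE 0.31). Nr4a3, an orphan nuclear receptor gene induced by cyclic AMP, read 48.6, 71.9 and 870.2 in phd3 null, against 866.9, 103.7 and 1045.9 in wild type, and its difference of -1.49 (SE 1.05) came mainly from pair 1 (-3.77, against -0.45 and -0.26 in pairs 2 and 3). Nr4a1 differed by -0.43 (SE 0.61).

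Immediate early genes, the class of rapidly induced genes to which Ptgs2 belongs, were lower in 8 of 10 tested cases. The share over all genes was 50.6%, and the median of the 10 was -0.16. In all 3 pairs 5 of 10 were lower, against 13% of all genes. None passed in either fit. Dusp1, a MAP kinase phosphatase gene, read 2697.8, 1557.3 and 2582.7 in phd3 null, against 5415, 3169.3 and 4187.2 in wild type, without overlap, a log2 difference of -0.90 (SE 0.37). Egr2 differed by -1.16 (SE 0.75), Egr1 by -0.71 (SE 0.80) and Atf3 by -0.38 (SE 0.30), all transcription factor genes. The 3 were lower in phd3 null in all 3 pairs, as was the dimmer Ptgs2 probe set (1417263_at). The brighter Ptgs2 probe set was lower in pairs 1 and 3 and level in pair 2 (0.01).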

How the data were processed

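The deposited values are signal intensities, not logged, that the authors made with MAS5, per the submitters' processing notes. The sources used here give no MAS5 version, and detection calls were not used. The number of arrays limits the precision. Of 45037 non-control probe sets, 34945 had 1 gene symbol, 932 several and 9160 were unnamed here. A gene was read from its probe set of highest mean log2(signal + 16), and genes with a mean below the median probe set (5.90) were not tested. Genotypes were compared over 10960 genes with limma 3.58.1 in R 4.3.3 (eBayes with trend, two-sided), with Benjamini-Hochberg adjustment over all genes. Each single probe set was also fitted among all 45037, without the filter. An exact permutation test of 3 against 3 arrays cannot go below p = 0.1 and was not used.

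Same-numbered samples share a source code in the labels. Their deviations from the group means correlated across genes at 0.292, 0.151 and 0.474, all over 0.1, so they were treated as pairs. Differently numbered arrays gave -0.363 to 0.177, the highest for phd3 null sample 2 with wild-type sample 1, above that of its own pair. Replicate 3 stood apart in both genotypes, which by itself makes deviations of samples 1 and 2 alike. These correlations therefore cannot settle which of samples 1 and 2 belong together, and for them the pairing rests on the shared code. The members and gene lists were chosen with earlier results of these data known. Named genes are the members, up to 4 genes of smallest p in each list (Ptgr1 as past the threshold in the paired fit) and, for the 3 members of largest SD, the 3 genes nearest in pattern. The plot of gene lists also labels the lowest and highest gene of each list, chosen after their values were seen. The fit was tested on simulated data. Promoter windows and gene names came from RefSeq (GRCm38.p6), and the files name no genome build. Alternatives covered the pseudocount, normalization, filter, probe set choice, prior variance, array weights, the replicate block and left-out arrays.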

Additional observations from a re-analysis of the deposited data

How the results depend on the processing

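Every alternative gave 0 members past the adjusted threshold, with 5 to 7 members tested. Differences kept their direction for Ptger2 (-1.30 to -0.57) and Tbxas1 (-1.01 to -0.23) in all 18 alternatives run. For these 2 genes, with 1 probe set each, several alternatives could not move the difference. These were the filter, the averaging of probe sets, the prior variance and the replicate block, so their agreement carries no weight. When 1 array was left out, values ran from -1.28 to 0.26 for Ptgs2, from -0.75 to 0.10 for Hpgd, from -0.29 to 0.091 for Ptger4 and from -0.11 to 1.49 for Ptges. Ptgs2 changed sign without phd3 null sample 3 (0.26) or wild-type sample 1 (0.09), Hpgd and Ptger4 without wild-type sample 2 (0.10 and 0.091), and Ptges without phd3 null sample 1 (-0.11), where another of its probe sets became the brightest and stood for the gene. With probe sets averaged, Ptges was too dim to be tested. Alternatives that left all 6 arrays in, or left out pair 3 whole, changed no member's direction. The count of all genes called, 0 in the fit reported, was 2 with the replicate block, 1 with the replicate block and quantile normalization, 0 with the replicate block and no trend in the prior variance, 1 with both arrays of pair 3 left out and 44 with the replicate block and pair 3 left out, a setting chosen after seeing the data. It was 0 to 1 when 1 array was left out, the 1 being without wild-type sample 3. The replicate block changed no member's call. Dim probe sets limit what can be said of Ptges, Ptges2 and Tbxas1.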
